A study of Mus musculus with 3 samples.

Results

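Pericentral sinusoidal endothelial cells line the liver capillaries around the central vein, and 295 of them were found among 2775 sinusoidal endothelial cells and 8087 liver cells of all types. A barcode counted as a cell with 1000 or more unique molecular identifiers (UMIs, each standing for 1 captured RNA molecule) from 300 or more genes, of which mitochondrial genes held no more than 20%. A cell was taken as sinusoidal endothelial when 7 genes (Stab2, Clec4g, Dnase1l3, Kdr, Oit3, Gpr182 and Fcgr2b) summed to at least 20 per 10000 UMIs. The Kupffer cell genes Clec4f, Vsig4 and Cd5l had to sum to under 20 per 10000, and the large vessel genes Vwf, Cd34 and Adgrg6 to under 5 per 10000. A member was then chosen by 5 genes, Wnt2, Wnt9b, Rspo3, Kit and Cdh13, which had to hold at least 2 UMIs together and more than 2 times the UMIs of the periportal genes Efnb2, Ltbp4, Msr1, Ntn4 and Adam23. The mirrored rule gave 1743 periportal sinusoidal endothelial cells, which lie near the portal vein and served as the comparison within each mouse.

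The cells came from 3 wild-type (WT) mice, 1 per group, each kept for 1 week on an iron-deficient diet with 2 to 6 ppm iron. In IDD+HID the animal then ate food with 2% carbonyl iron for 18 h. The mouse of IDD+HTF received 10 mg of holo-transferrin (holo-Tf), transferrin carrying its iron, into the tail vein, and the time from injection to collection is not given in the sources used here. The mouse of IDD stayed on the deficient diet, so the control shares the iron deficiency with both treated mice. Livers were digested with collagenase and pronase, and hepatocytes made up 5% and non-parenchymal cells 95% of the mixture from which 10x Genomics 3' libraries were prepared. Age, sex and strain were not given in the sources used here.

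Endothelial cells of the liver capillaries sense iron and secrete the BMP ligands that make hepatocytes produce hepcidin, the hormone that limits iron uptake. Those near the central vein also secrete Wnt ligands and R-spondin, which set the metabolic program of the hepatocytes around them. NRF2 is a transcription factor of the oxidative stress response that binds antioxidant response elements in promoters such as those of glutathione synthesis genes.

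The series asks, by its title, whether sinusoidal endothelial cells raise Bmp6 when iron not bound to transferrin reaches them. Promoters are shown here for 3 genes whose levels are described further on, each with the letters of an antioxidant response element. Gclm encodes the modifier subunit of glutamate-cysteine ligase, which makes the precursor of glutathione, Prdx1 a peroxide-removing enzyme, and Bmp6 the BMP ligand named by the study. The motif TGACNNNGC was searched on both strands of 300 bases, 250 before to 50 after each RefSeq start (GRCm38.p6), and capitals mark the match as it reads on the printed strand. The windows lie at chr3:122245307-122245606 for Gclm, chr4:116685349-116685648 for Prdx1 and chr13:38345466-38345765 for Bmp6, all on the plus strand.
Gclm: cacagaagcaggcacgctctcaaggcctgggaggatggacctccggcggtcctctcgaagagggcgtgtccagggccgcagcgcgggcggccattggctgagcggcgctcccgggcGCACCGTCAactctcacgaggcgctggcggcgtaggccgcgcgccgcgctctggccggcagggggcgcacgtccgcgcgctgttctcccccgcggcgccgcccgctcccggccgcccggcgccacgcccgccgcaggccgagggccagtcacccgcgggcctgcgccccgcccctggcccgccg
Prdx1: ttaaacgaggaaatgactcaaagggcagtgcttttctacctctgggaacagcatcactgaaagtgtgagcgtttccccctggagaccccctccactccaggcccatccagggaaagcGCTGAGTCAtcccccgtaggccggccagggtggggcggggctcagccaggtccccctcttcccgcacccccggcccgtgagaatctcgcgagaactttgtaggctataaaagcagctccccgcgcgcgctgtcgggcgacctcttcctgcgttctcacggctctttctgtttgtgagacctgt
Bmp6: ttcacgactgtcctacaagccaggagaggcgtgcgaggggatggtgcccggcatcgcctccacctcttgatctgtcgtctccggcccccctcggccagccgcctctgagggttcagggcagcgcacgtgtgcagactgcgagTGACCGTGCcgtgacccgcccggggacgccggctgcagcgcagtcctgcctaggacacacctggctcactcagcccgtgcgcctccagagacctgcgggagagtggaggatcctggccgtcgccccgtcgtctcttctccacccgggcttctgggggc
The letters begin 134 bases before the start in Gclm, 133 in Prdx1 and 108 in Bmp6. They occur in 4071 of all 32851 promoters of that length (12.4%), so a match describes the sequence and does not show a binding site. Of the 24 genes of the NRF2 list 19 had a promoter sequence, and 10 of these held the letters in any of their promoters. Some genes have several promoters, so this count is not on the scale of the 12.4%, which is over single promoters. The 3 genes shown were picked from those with a match. The promoters of Ftl1, Fth1, Bmp4 and Nqo1, whose levels are also described, were searched and held no match.

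IDD+HID gave 165 of the members, IDD+HTF 81 and IDD 49. Depth differed in the same order, with 75404660, 55478904 and 34552858 UMIs per library and medians of 10532, 7156 and 4178 UMIs per member. Summed over members the depth was 1950009, 670016 and 248011 UMIs, so IDD sets the precision of every comparison with it. Levels are CPM, the UMIs of a gene scaled to a total of 1000000 per sum, where 3 UMIs correspond to 1.54, 4.48 and 12.1 CPM in the 3 libraries, and all intervals are 95% and reflect counting error alone. Since each group is 1 mouse, no difference between treatments has a replicate check, and none is given a p-value. In summed counts, fewer cells of a type and less RNA per cell cannot be told apart. Pairs of libraries shared 1 barcode each among the cells and 0 among the members.

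The share of pericentral cells among sinusoidal endothelial cells was 12.03% in IDD+HID (10.35 to 13.87, exact Clopper-Pearson), 8.53% in IDD+HTF (6.83 to 10.49) and 10.82% in IDD (8.11 to 14.05). With each cell thinned to 3000 UMIs, for which 124, 129 and 188 sinusoidal cells were too shallow, the shares were 12.53% (10.74 to 14.51), 7.81% (6.06 to 9.86) and 13.69% (9.78 to 18.44). IDD+HTF was the lowest, and its interval overlapped that of IDD narrowly. At 1000 UMIs per cell the shares were 9.91%, 7.05% and 7.66%, and at 5000 UMIs they were 11.23%, 8.50% and 18.35%, so IDD took the middle or the highest place with the depth chosen. The rule reads these genes, so the shares are a description.

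The 5 genes of the rule were all found in the members of each library, at levels that the rule itself helped to set. Wnt2, a Wnt ligand (chromosome 6, 17988940 to 18030585, minus strand, GRCm38), stood at 611 CPM in IDD+HID, 643 in IDD+HTF and 601 in IDD. Kit, the receptor of stem cell factor, stood at 806, 851 and 996 CPM in the same order, and the adhesion molecule Cdh13 at 321, 493 and 456 CPM. Wnt9b, the second Wnt ligand, stood at 92.8, 67.2 and 109 CPM. Wnt2 was detected in 158 of 165, 76 of 81 and 39 of 49 members, and Wnt9b in 67, 20 and 12. The rule used both genes, and a cell without a UMI may still express them at these depths. The number of rule genes seen in a cell followed depth: 42 of 165, 12 of 81 and 9 of 49 members had all 5, and 7, 5 and 6 had 1. At the edge of the rule, 4, 2 and 3 members had exactly 2 UMIs of the 5 genes, and 3, 6 and 3 cells with 1 such UMI and no periportal one fell outside.

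Rspo3, the R-spondin that amplifies Wnt signals (chromosome 10, 29452416 to 29535867, minus strand), stood at 441 CPM in IDD+HID, 482 in IDD+HTF and 1181 in IDD. It was lower in both treated mice than in IDD, and within each library 1 cell held much of it, 9.2%, 19.8% and 24.6% of its UMIs. Because the rule selects on Rspo3, its level was also taken over all sinusoidal endothelial cells, where it was 76.9, 66.7 and 184 CPM. That is 0.418-fold in IDD+HID over IDD (0.37 to 0.474) and 0.362-fold in IDD+HTF over IDD (0.314 to 0.418). Over the same cells Wnt2 was at 271, 223 and 196 CPM, Kit at 381, 302 and 370 CPM, Wnt9b at 19.1, 10.8 and 17.4 CPM and Cdh13 at 104, 136 and 128 CPM. Of the 5 genes, Rspo3 thus differed most between the treated mice and IDD.

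A Rspo3 UMI was found in 77 of 165, 24 of 81 and 22 of 49 members, and these cells differed from the other members in several genes. This split was chosen after the values were seen and is given without a test. Lhx6, a LIM homeobox transcription factor, stood at 123, 238 and 481 CPM in cells with a Rspo3 UMI and at 51.4, 54.0 and 88.6 CPM in those without. Selp, the adhesion molecule P-selectin, stood at 89.3, 174 and 348 CPM with it, against 12.6, 18.0 and 0 CPM without it. Both genes were higher in the cells with a Rspo3 UMI in all 3 libraries, and in these cells both were highest in IDD. Bmp4, another BMP ligand, stood at 21.4, 85.4 and 148 CPM in cells with a Rspo3 UMI and had 0 UMIs in all others. Wnt9b was 125, 121 and 192 CPM with it and 53.7, 28.3 and 8.86 CPM without it. The hyaluronan receptor Lyve1 ran the other way, with 217, 185 and 14.8 CPM against 295, 540 and 222 CPM. Bmp6 did too, with 64.2, 46.3 and 7.4 CPM against 91.4, 74.6 and 26.6 CPM, but its intervals overlap in each library. Kit and the scavenger receptor Stab2 were present on both sides, Stab2 at 1401, 1252 and 1125 CPM with a Rspo3 UMI and 1544, 1597 and 1568 CPM without. The rule reads Kit, Wnt9b and Stab2, and members without a Rspo3 UMI had to pass by the other pericentral genes. Their presence on both sides was therefore partly set in advance and is a description. Cells with a Rspo3 UMI were also deeper, with medians of 11680, 8306 and 6104 UMIs against 9138, 6942 and 2977. The part of depth in the split was not tested.

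**Figure D1:**
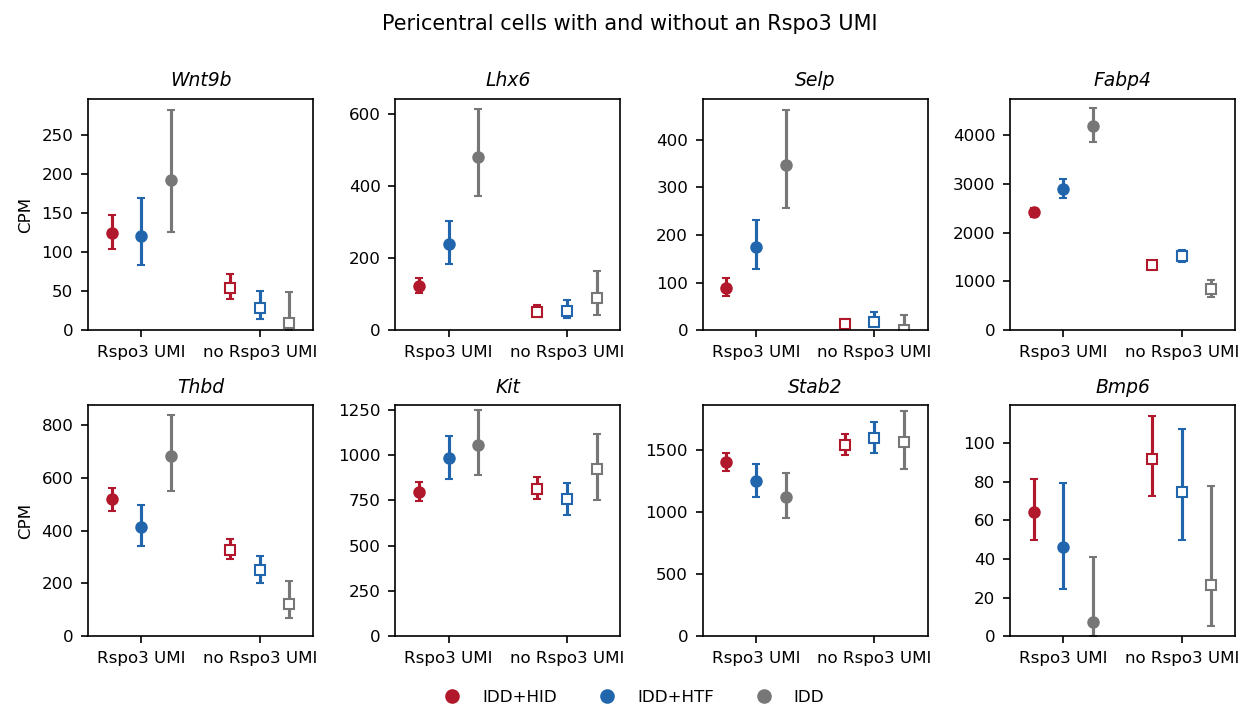
Level in CPM (vertical axes, linear, starting at 0) of 8 genes in pericentral cells with a Rspo3 UMI (filled circles, left) and without (open squares, right), by library, with exact Poisson 95% intervals. Selp, Lhx6 and Wnt9b sit higher on the left in all 3 libraries, while Stab2 lies between 1125 and 1597 CPM on both sides. Wnt9b, Kit and Stab2 are genes that the rule reads.

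Markers of other cell types were looked for in the members. The 10 sinusoidal markers summed to 19660, 18890 and 13810 CPM, with none at 0. Of these markers 7 are genes that the rule reads, so a high sum was set in advance and is a description. The 8 large vessel markers that the rule did not name summed to 257, 391 and 883 CPM, with 2 of 8 (Mgp and Cpe) at 0 in all 3 libraries, and Edn1 alone gave 335 of the 883 CPM in IDD, 73.5% of it from 1 cell. Of the lymphatic markers, Pdpn was at 0 in all 3. Hepatocyte markers summed to 1422, 1673 and 923 CPM in members, against 32950, 32880 and 18140 CPM in droplets with at most 100 UMIs, which hold free RNA. Kupffer markers summed to 225, 170 and 72.6 CPM, stellate markers to 2549, 1572 and 1246 CPM, B cell markers to 147, 56.7 and 8.06 CPM and MHC class II genes to 4391, 145 and 4451 CPM. Some members held markers of a second type: 18, 5 and 6 cells passed limits set after the data were seen for MHC class II genes (9, 1 and 1 cells), stellate genes (9, 4 and 5) or B cell genes (3, 1 and 0). Doublets were not called, and the main counts below are also given without these members.

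Zonation was tested between pericentral and periportal cells over the 3 mice, with the mouse as a block and the genes of the rule left out. Of 12206 genes 298 rose (2.44%) and 239 fell (1.96%) at an adjusted p under 0.05 in edgeR's quasi-likelihood test with Benjamini-Hochberg adjustment. Without the members that held markers of other types 269 rose and 266 fell, of which 182 and 213 were among the first. Without the IDD+HID library only 86 rose and 53 fell. Of the 11 pericentral endothelial genes outside the rule 10 rose, with a median log2 fold change of 1.85 over the list, against 0.00795 over all genes tested. These genes are known pericentral markers, so their direction is not independent of the rule's choice. Lhx6, Selp, Ramp3 and Fbln2 are at the same time in the list of large vessel markers, of which 5 of 6 tested rose (the fifth being Edn1), with a median of 3.51. The 8 large vessel markers outside the rule summed to 257, 391 and 883 CPM in pericentral cells, against 47.3, 63.7 and 69.0 CPM in periportal cells, with Mgp and Cpe at 0 in the pericentral cells of all 3 mice. Their part in the zone difference was not tested.

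Lhx6 (chromosome 2, 36081953 to 36105408, minus strand) stood at 90.8, 131 and 302 CPM in pericentral cells of IDD+HID, IDD+HTF and IDD, and at 1.90, 2.63 and 5.24 CPM in periportal cells. Selp (chromosome 1, 164115264 to 164150026, plus strand) stood at 54.9, 83.6 and 190 CPM in pericentral cells and at 2.26, 1.76 and 3.49 CPM in periportal cells. The zones did not overlap for either gene, and in pericentral cells the IDD mouse was highest for both. Lhx6 rose by 5.61 on the log2 scale (SE 0.197, adjusted p = 7.36e-11 by edgeR) and Selp by 5.08 (SE 0.273, adjusted p = 2.47e-08 by edgeR). Ramp3, a partner of the adrenomedullin receptor, stood at 30.3, 34.3 and 20.2 CPM against 2.02, 2.63 and 0.873 CPM and rose by 3.83. Fabp4, a fatty acid carrier of endothelial cells, stood at 1934, 2100 and 2673 CPM against 570, 730 and 522 CPM and rose by 1.85. Thbd, the anticoagulant receptor thrombomodulin, stood at 432, 318 and 427 CPM against 150, 100 and 65.5 CPM and rose by 1.81. The prostaglandin synthase Ptgs1 (1.44) and the gap junction gene Gja4 (1.06) rose as well, as did Car8 (0.77) and the Wnt modulator Dkk3 (2.31). Fbln2 rose by 3.01, but 1 cell held 95.7% of its UMIs in IDD+HTF.

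**Figure D2:**
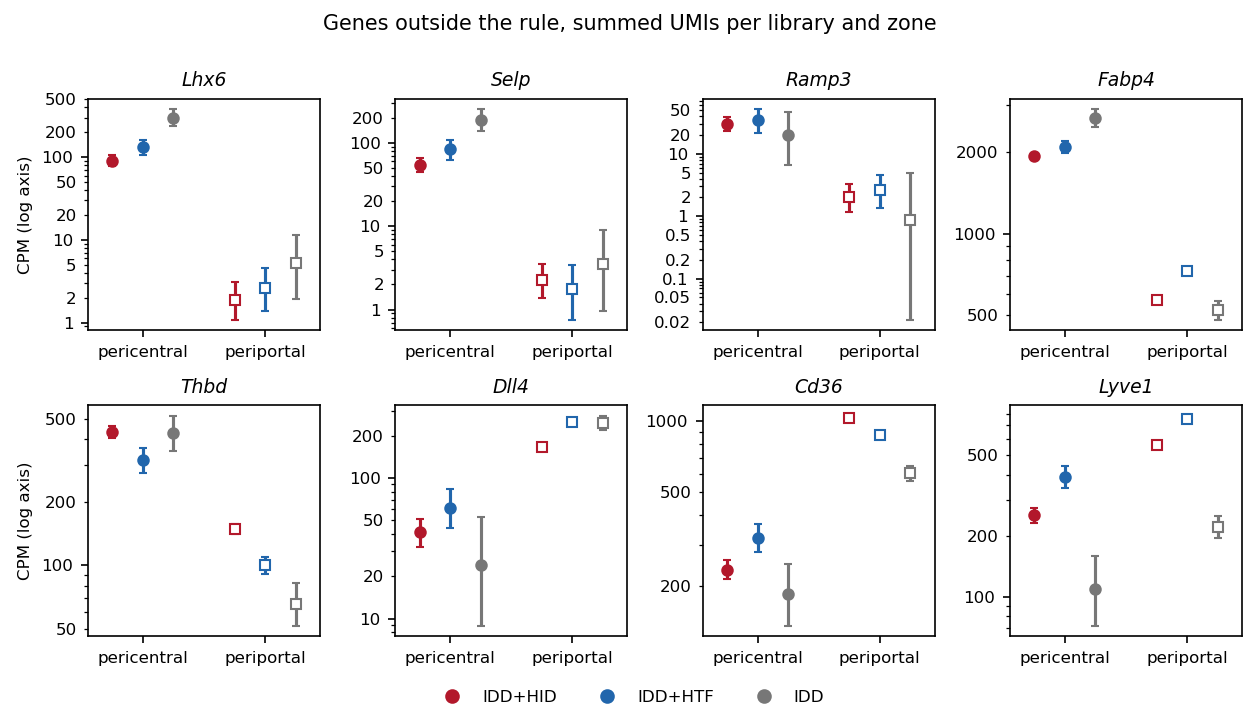
Level in CPM (vertical axes, log scale) of 8 genes outside the rule in pericentral (filled circles) and periportal cells (open squares) of each library, with exact Poisson 95% intervals that cover counting error only. The first 5 genes are higher in pericentral and the last 3 in periportal cells of all 3 mice.

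Other genes with the largest increases were low in level. Plppr5, a phospholipid phosphatase-related membrane protein, rose by 3.99, with 46.7, 56.7 and 40.3 CPM in pericentral cells and 4.16, 1.98 and 1.75 CPM in periportal cells. Ackr3, a scavenging receptor for the chemokine Cxcl12, rose by 3.61, with 34.4, 20.9 and 76.6 CPM against 2.49, 1.98 and 6.11 CPM. Both were detected in every library. Bmp4 rose by 3.91, with 11.8, 35.8 and 80.6 CPM against 0.119, 4.83 and 3.49 CPM, and its UMIs came from 7, 5 and 4 cells. Cd200 (3.72) and the growth factor Tgfb2 (4.23) rested on 15, 5 and 5 cells and on 6, 3 and 4 cells. Ajap1 had the largest change, 5.73, from 4, 8 and 4 UMIs. For 3 more of the genes with the largest increases, the members that held markers of other types carried the signal. Without those members Podn, a matrix proteoglycan, was at 0 in all 3 libraries, and the chloride channel Ano1 was at 0.667, 1.8 and 0 CPM. Lgals3, a lectin of myeloid cells, was then at 0, 14.4 and 10.5 CPM and no longer passed (log2 0.21, adjusted p = 0.963 by edgeR). MHC class II genes and their relatives showed the same: 6 of 14 antigen presentation genes rose in the full set, H2-Eb1 by 3.44 and H2-Aa by 2.83, and 0 of 13 rose without those members. The share of all genes that rose in the full set was 2.44%.

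Periportal endothelial genes outside the rule fell in 6 of 10 cases and rose in 2, with a median of -0.94 over the list. Among all genes tested 1.96% fell and 2.44% rose. Dll4, a Notch ligand, stood at 41.0, 61.2 and 24.2 CPM in pericentral cells and at 165, 250 and 246 CPM in periportal cells. Cd36, a fatty acid and scavenger receptor, stood at 235, 321 and 185 CPM against 1034, 874 and 603 CPM. The zones did not overlap for either gene. Dll4 fell by 2.18 on the log2 scale (SE 0.164, adjusted p = 9e-07 by edgeR) and Cd36 by 1.80 (SE 0.142, adjusted p = 1.38e-06 by edgeR). The laminin chain Lama4 (-1.72), the endothelin receptor Ednrb (-1.08) and Lyve1 (-1.07) fell as well. The 2 that rose against the list's name were Cd9, a tetraspanin (1.78), and Ecm1, a matrix protein that stellate cells also make (1.09). Ecm1 stood at 471, 324 and 198 CPM, but at 105, 88 and 89.5 CPM without the members with markers of other types, where 1 of 10 genes of the list rose.

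The 12 genes with the largest decreases were low in pericentral cells. Cfap69, a flagellar protein, had 0, 1 and 0 UMIs there, and 18.8, 13.0 and 13.1 CPM in periportal cells. Esm1, a proteoglycan secreted by endothelial tip cells, also had 0, 1 and 0 UMIs, against 16.7, 18.2 and 3.49 CPM. Their log2 fold changes were -5.41 and -5.33. Tox2 (-4.88) and Cnmd (-4.14) followed with 0 or 1 UMI per library. Mecom, a zinc finger transcription factor, stood at 9.74, 11.9 and 32.3 CPM against 78.7, 70.9 and 124 CPM and fell by 2.70. Flrt1 fell by 2.65, and the vessel-destabilising ligand Angpt2 by 2.30. Slc45a4 (-2.96), Galnt15 (-2.74), Gprc5c (-2.67), Kcnj2 (-2.44) and AC109619.1 (-2.38) complete the set. Of these, Cfap69, Slc45a4, Gprc5c, Kcnj2 and AC109619.1 no longer passed without the IDD+HID library.

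**Figure D3:**
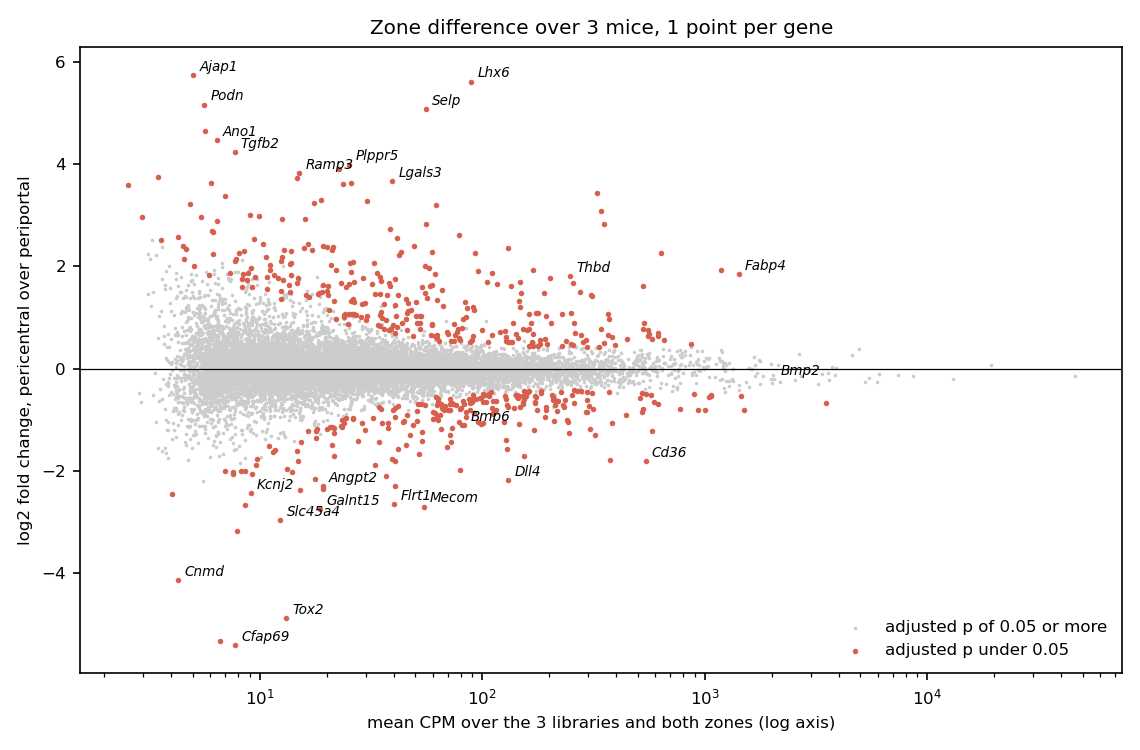
Log2 fold change of pericentral over periportal cells (vertical axis) against the mean CPM of both zones in the 3 libraries (horizontal axis, log scale), 1 point per gene, with genes of adjusted p under 0.05 by edgeR in red and named examples labelled. Lhx6 and Selp combine a change above 5 with a mean near 60 to 90 CPM, while Ajap1, Cnmd and Cfap69 lie at means under 10 CPM.

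Signalling genes split between the zones, where 2.44% of all genes tested rose and 1.96% fell. Of 14 Notch and ephrin genes 3 rose and 4 fell. Lfng, a sugar transferase that tunes Notch receptors, rose by 1.85, with 88.2, 134 and 68.5 CPM against 27.6, 30.7 and 19.2 CPM, while Dll4 and the ephrin Efnb1 (-1.27) fell. Of 9 retinoid genes 5 rose, among them the receptor Rarb (1.45) and Cyp26b1, which degrades retinoic acid (0.64). Without the members with markers of other types 5 of 8 retinoid genes rose. Of 14 Wnt pathway genes outside the rule 3 rose (Dkk3, Lrp5 by 0.78 and Nkd1 by 0.57) and none fell at this threshold. Around Kit, the feedback inhibitors Spry1 (1.12) and Dusp4 (0.96) rose, and Kitl, which encodes the ligand of Kit, fell by 1.04, with 83.6, 44.8 and 68.5 CPM against 173, 105 and 99.6 CPM. Of 20 vascular growth factors 4 rose and 4 fell, Vegfa by 1.04 upward and Vegfc by 1.81 downward. Plvap, of the fenestra diaphragm, rose by 1.5, alone among 11 fenestra, caveola and junction genes. Of 10 hepatocyte markers 8 fell, Alb by 0.86, at 476, 388 and 238 CPM against 786, 552 and 683 CPM, and the part of free RNA in the zone differences was not tested.

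Among BMP genes, Bmp6 fell in pericentral cells by 1.10 (SE 0.162, adjusted p = 0.000523 by edgeR), at 76.4, 62.7 and 16.1 CPM against 172, 102 and 68.1 CPM in periportal cells. It was lower in the pericentral cells of every mouse, but the call was lost without the IDD+HID library (log2 -0.999, adjusted p = 0.123 by edgeR). Bmp2 did not pass (log2 -0.20, SE 0.117, adjusted p = 0.518 by edgeR). The BMP antagonist Bmper (-1.89) and the inhibitory Smad6 (-0.48) fell. Hmox1, which breaks down heme, fell by 1.54, Gclm by 1.00, the iron exporter Slc40a1 by 0.53, and the metal-binding Mt1 and Mt2 by 0.82 and 0.95. Of 23 NRF2 target genes 3 fell and none rose at this threshold, and of 21 interferon response genes 4 fell, Ifit1 by 1.42 and Isg15 by 0.66. Over all genes tested 1.96% fell and 2.44% rose.

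Between treatments, genes were called by size alone, at 1.5-fold, among those where the smaller library would hold at least 10 UMIs at the level of the pair pooled. In IDD+HID over IDD 1073 of 4566 genes were higher (23.5%) and 334 lower (7.31%). In IDD+HTF over IDD 884 of 4509 were higher (19.6%) and 378 lower (8.38%). In IDD+HID over IDD+HTF 1007 of 8074 were higher (12.5%) and 805 lower (9.97%). The median log2 ratio over all genes was 0.18, 0.11 and 0.04 in these 3 comparisons, and 0.371, 0.192 and 0.140 with TMM scaling. Genes higher in the first-named mouse made up 76.3%, 70% and 55.6% of the calls, and 89.8%, 79.1% and 68.9% with TMM scaling. Without the members with markers of other types the counts were 948 higher and 288 lower, 721 and 327, and 867 and 670. Hepatocyte markers were higher in 5 of 8 cases and lower in 1 in IDD+HID over IDD, and higher in 8 of 9 in IDD+HTF over IDD, and the part of free RNA in these differences was not tested. Both comparisons with IDD share that mouse, so their values are given side by side and not as support for each other.

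Bmp6 (chromosome 13, 38345107 to 38500302, plus strand) had 149 UMIs in IDD+HID members, 42 in IDD+HTF and 4 in IDD. Its level was 76.4 CPM in IDD+HID, 62.7 in IDD+HTF and 16.1 in IDD. Both treated mice stood above IDD, and they lay close to each other. The ratio was 4.74-fold in IDD+HID over IDD (1.81 to 17.6), 3.89-fold in IDD+HTF over IDD (1.41 to 14.9) and 1.22-fold in IDD+HID over IDD+HTF (0.86 to 1.76). With at most 10% mitochondrial UMIs, which left 2 Bmp6 UMIs in IDD, the ratios over IDD were 8.05-fold in IDD+HID and 6.65-fold in IDD+HTF. In periportal cells the levels were 172, 102 and 68.1 CPM, and the same ratios were 2.53 (2.02 to 3.22), 1.5 (1.17 to 1.93) and 1.69 (1.52 to 1.88). The ratios of the 2 zones overlap in their intervals, and the difference between zones was not tested. A Bmp6 UMI was found in 44.2%, 35.8% and 8.16% of members. Thinned to 1000 UMIs per cell, the shares were 7.17% (3.74 to 12.2), 6.97% (2.50 to 14.9) and 1.89% (0.0368 to 10.6), and at that depth the intervals of the treated mice and IDD overlap. Cells gated as hepatocytes, which should lack it, gave 0.361%, 0% and 0% at the same depth. Also before thinning, 0 of 750 IDD+HTF and 0 of 189 IDD cells of this gate held a Bmp6 UMI, which by the floor of 3 counts allows shares of cells with a UMI of up to 0.4% and 1.59%. The median depths before thinning were 2592, 2317 and 2136 UMIs in these cells.

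Bmp2 (chromosome 2, 133552159 to 133562885, plus strand) is the more abundant BMP ligand of these cells and had 4875, 1470 and 282 UMIs. It stood at 2500 CPM in IDD+HID, 2194 in IDD+HTF and 1137 in IDD. The ratio was 2.20-fold in IDD+HID over IDD (1.95 to 2.49) and 1.93-fold in IDD+HTF over IDD (1.70 to 2.20). Target genes of BMP-SMAD signals within the endothelial cell were measured as well. Id1 was at 296, 333 and 262 CPM, within 1.5-fold of IDD in both treated mice. Without the members with markers of other types it was at 300, 327 and 195 CPM, and then passed 1.5-fold over IDD in IDD+HID (log2 0.62) and in IDD+HTF (0.75). In IDD+HTF over IDD it also passed as a mean over cells (0.65), with the deepest cells left out (0.66) and with the rule applied after thinning (0.66). Smad7 was at 270, 301 and 298 CPM, and Smad6 at 123, 157 and 185 CPM. Smad6 was 0.664-fold in IDD+HID over IDD (0.482 to 0.931), and under TMM scaling its log2 ratio of -0.40 was no longer past 1.5-fold. Of 7 BMP ligands and targets measured 2 were higher and 1 lower in IDD+HID over IDD, where 23.5% and 7.31% of all genes were. In IDD+HTF over IDD 2 of 8 were higher and 1, Bmp4, lower, against 19.6% and 8.38% of all genes. Without the members with markers of other types 3 of 7 and 3 of 6 were higher, and 0 were lower in either comparison. Of the BMP receptors and their partners, 0 of 7 and 1 of 9 (Smad5, lower) passed 1.5-fold.

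**Figure D4:**
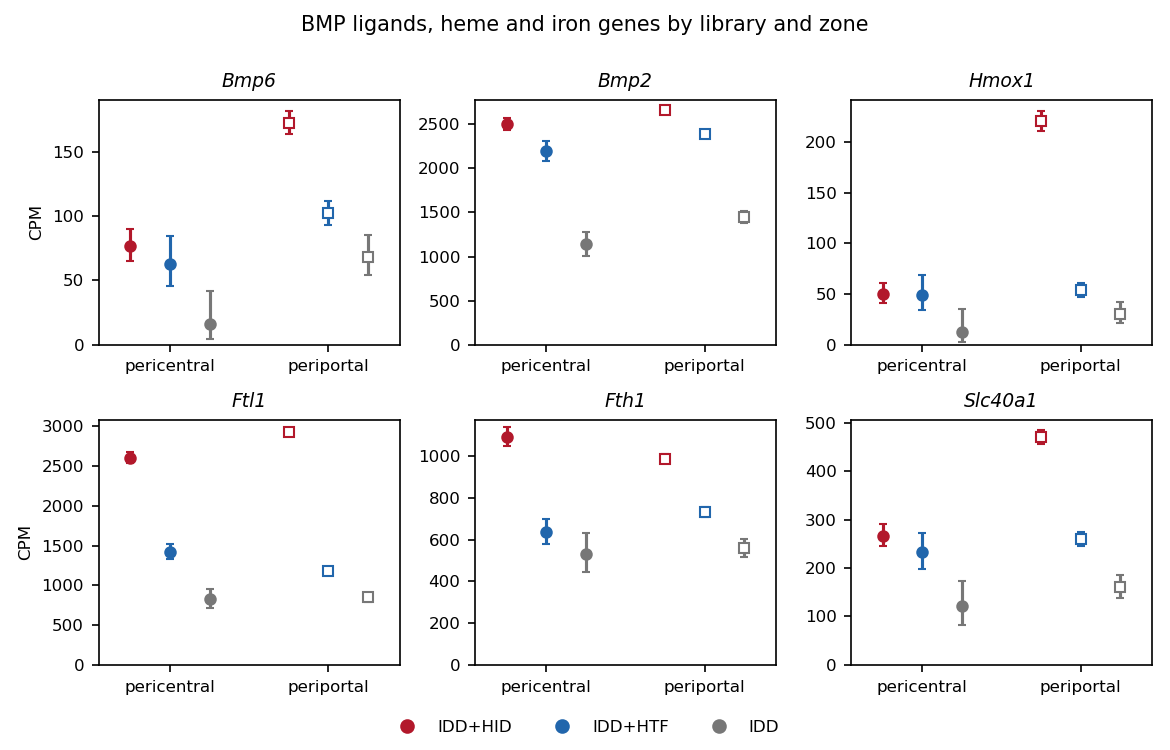
Level in CPM (vertical axes, linear, starting at 0) of 6 genes in pericentral (filled circles) and periportal cells (open squares) of each library, with exact Poisson 95% intervals that cover counting error only. Bmp6, Bmp2 and Slc40a1 are lowest in IDD in both zones, and Hmox1 of IDD+HID is 50.3 CPM in pericentral and 220 CPM in periportal cells.

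The ferritin chains and the iron exporter were higher in IDD+HID than in IDD. Ftl1, the ferritin light chain, stood at 2607 CPM in IDD+HID, 1422 in IDD+HTF and 831 in IDD, in steps that the intervals separate. It was 3.14-fold in IDD+HID over IDD (2.73 to 3.63) and 1.71-fold in IDD+HTF over IDD (1.47 to 2.00). Fth1, the ferritin heavy chain, stood at 1092, 636 and 532 CPM, with 2.05-fold (1.72 to 2.46) and 1.19-fold (0.98 to 1.46). In IDD+HTF over IDD the Fth1 value depended on the cells used, at log2 0.26 in the sum, 1.06 with the deepest cells left out and 0.72 as a mean over cells. Slc40a1, the iron exporter ferroportin, stood at 267, 233 and 121 CPM, with 2.21-fold (1.53 to 3.31) and 1.92-fold (1.30 to 2.95). Free RNA in the near-empty droplets differed in the same direction: Ftl1 was 1817, 1293 and 732 CPM there, Fth1 1641, 1370 and 823 CPM, and Slc40a1 266, 234 and 104 CPM. Its part in these ratios was not tested. Of 12 iron handling genes measured 6 were higher in IDD+HID over IDD, and of 11 in IDD+HTF over IDD 4 were higher and 1, Ireb2, lower. Over all genes 23.5% and 19.6% were higher. Without the members with markers of other types 4 of 10 were higher and 2 lower, and 2 of 9 were higher and 1 lower, the last being near the share over all genes. The metalloreductase Steap4 was among those higher in IDD+HID, at 51.3, 25.4 and 16.1 CPM, and was at 2, 0 and 0 CPM without them. Tfrc, the transferrin receptor, had 21, 3 and 0 UMIs, and the transporter Slc39a14 had 11, 6 and 0, too few to compare with IDD.

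Hmox1 (chromosome 8, 75093621 to 75100589, plus strand) had 98, 33 and 3 UMIs in members, or 50.3, 49.3 and 12.1 CPM. The 2 treated mice were alike, and near-empty droplets held more of it, 82.4, 105 and 43.5 CPM. It was 4.15-fold in IDD+HID over IDD (1.38 to 20.5), and in IDD+HTF over IDD it was too sparse to be called. In periportal cells it stood at 220, 53.6 and 30.6 CPM, so there IDD+HID was apart from IDD+HTF, 4.11-fold (3.60 to 4.72), where pericentral cells gave 1.02-fold (0.681 to 1.56). The 2 intervals do not overlap, but they cover counting error only, and the difference between zones was not tested. Bach1, the heme-sensing repressor of Hmox1, was at 130, 125 and 48.4 CPM, and the biliverdin reductase Blvrb at 127, 76.1 and 52.4 CPM. Of 5 heme genes measured 4 were higher in IDD+HID over IDD, and 2 of 4 in IDD+HTF over IDD, against 23.5% and 19.6% of all genes. Without the members with markers of other types only 3 were measured in each comparison, and 2 of these were higher.

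NRF2 target genes were higher in 7 of 14 cases in IDD+HID over IDD, with a list median of 0.50 against 0.18 over all genes, and none was lower by 1.5-fold. In IDD+HTF over IDD 2 of 10 were higher and 2 lower, with a median of 0.00194 against 0.11. Over all genes 23.5% and 19.6% were higher and 7.31% and 8.38% lower, so the higher count in IDD+HTF lies near that share. Without the members with markers of other types 8 of 11 were higher and 1 lower in IDD+HID over IDD. In IDD+HTF over IDD 2 of 9 were then higher and 0 lower. Gclm stood at 60.0, 47.8 and 20.2 CPM and was 2.98-fold in IDD+HID over IDD (1.24 to 9.34). Prdx1 stood at 726, 445 and 435 CPM, and was 1.67-fold in IDD+HID over IDD (1.37 to 2.05) and 1.02-fold in IDD+HTF over IDD (0.817 to 1.28). For Prdx1 the IDD+HID mouse alone was high. Gclc, the catalytic subunit beside Gclm, stood at 92.8, 35.8 and 32.3 CPM, with 29.8% of its IDD+HID UMIs in 1 cell. The thioredoxin reductase Txnrd1 stood at 94.4, 61.2 and 40.3 CPM and the efflux pump Abcc4 at 69.2, 61.2 and 24.2 CPM. Nqo1, a quinone reductase, stood at 17.9, 13.4 and 20.2 CPM and was too sparse to compare with IDD, while in periportal cells it stood at 34.0, 4.83 and 5.24 CPM. In IDD+HID over IDD+HTF Nqo1 was 1.34-fold in pericentral cells (0.63 to 3.16) and 7.03-fold in periportal cells (4.55 to 11.4). These intervals do not overlap, but they cover counting error only, and the difference between zones was not tested. Of the lipid peroxide defence genes, 1 of 3 measured in IDD+HID over IDD passed 1.5-fold (Acsl4, higher), and 0 of 2 in IDD+HTF over IDD.

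Metallothioneins, which bind zinc and other metals, were among the genes furthest from IDD. Mt1 stood at 1082 CPM in IDD+HID, 757 in IDD+HTF and 185 in IDD. It was 5.83-fold in IDD+HID over IDD (4.36 to 7.99) and 4.08-fold in IDD+HTF over IDD (3.01 to 5.64). Mt2 stood at 224, 110 and 48.4 CPM, with 4.62-fold (2.62 to 9.01) and 2.28-fold (1.23 to 4.62). The zinc exporter Slc30a1 passed 1.5-fold in both as well, so 3 of 5 genes of the list were higher in each comparison. The shares over all genes were 23.5% and 19.6%.

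Immediate early genes, which switch on within minutes of many stimuli and also during tissue digestion, were higher than in IDD in 15 of 18 cases in IDD+HID and 16 of 18 in IDD+HTF. Their median log2 ratios were 1.41 and 1.64, against 0.18 and 0.11 over all genes. The part of tissue handling was not tested. Fosb stood at 783 CPM in IDD+HID, 330 in IDD+HTF and 40.3 in IDD. Fos stood at 2495, 2063 and 456 CPM, and Egr1 at 1830, 1791 and 411 CPM. Jun stood at 2219, 3194 and 770 CPM. IDD was the lowest for each of these 4 transcription factors, while the order of the treated mice varied. Fosb was 19.4-fold in IDD+HID over IDD (10.5 to 40.6) and 8.18-fold in IDD+HTF over IDD (4.37 to 17.3). Dusp5, a phosphatase that damps ERK signals, stood at 183, 169 and 24.2 CPM. Klf2, the flow-responsive factor of endothelium, stood at 1833, 2600 and 931 CPM, 1.97-fold (1.72 to 2.26) and 2.79-fold (2.43 to 3.22) over IDD. Heat shock chaperones were higher in 8 of 13 cases and lower in 1 in IDD+HID over IDD, and higher in 7 of 13 in IDD+HTF over IDD. The shares of all genes that were higher were 23.5% and 19.6%. Hspa1a stood at 926, 1560 and 552 CPM, and Dnajb1 at 180, 287 and 92.7 CPM. The lower one, Hspb1, stood at 35.4, 98.5 and 113 CPM.

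**Figure D5:**
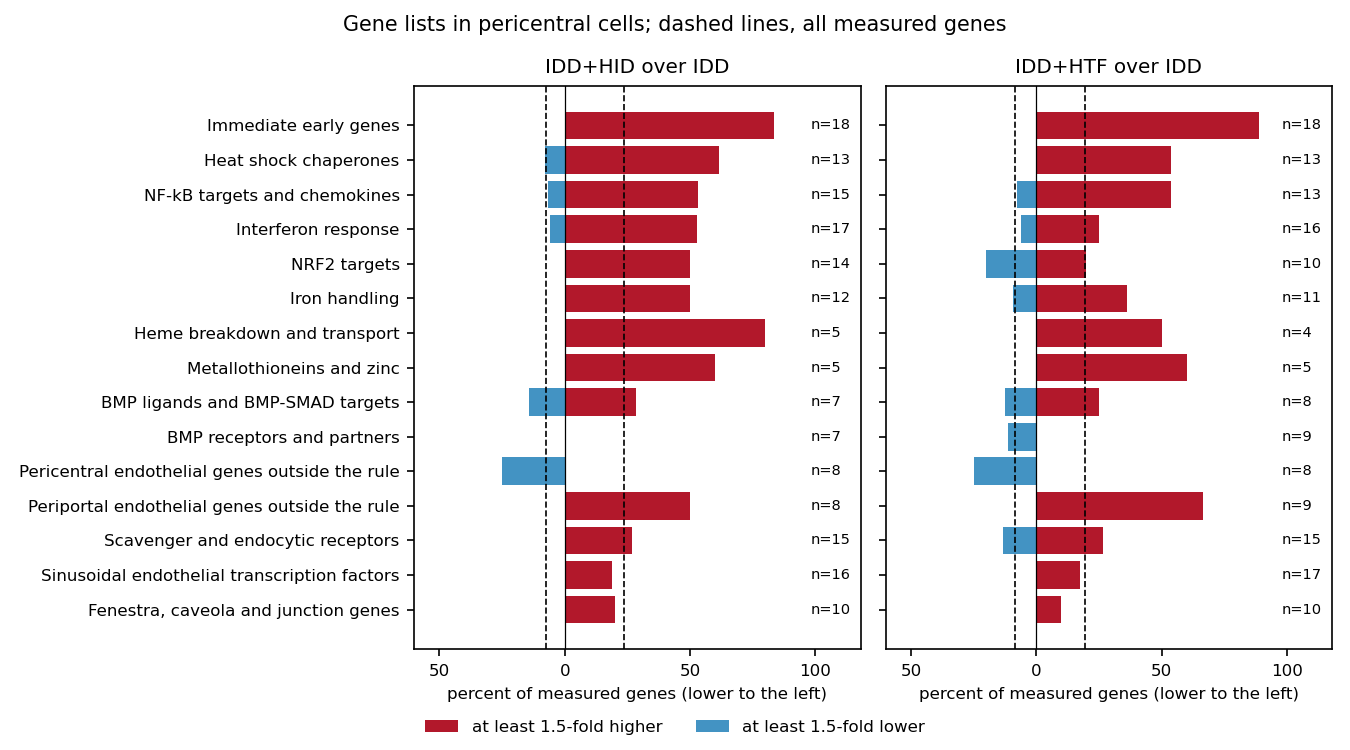
Percent of the measured genes of each list (n beside the bars) that were at least 1.5-fold higher (right, red) or lower (left, blue) in pericentral cells of IDD+HID (left panel) and IDD+HTF (right panel), each over IDD, with dashed lines at the percents over all measured genes. Immediate early genes reach furthest right in both panels, and the pericentral genes outside the rule have bars to the left only.

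Several inflammatory genes were higher than in IDD in both treated mice. Of the NF-kB targets and chemokines 8 of 15 were higher and 1 lower in IDD+HID over IDD, and 7 of 13 were higher and 1 lower in IDD+HTF over IDD. The shares of all genes that were higher were 23.5% and 19.6%. Cxcl10, an interferon-induced chemokine, stood at 518, 430 and 84.7 CPM, and Socs3, a feedback inhibitor of cytokine signals, at 483, 227 and 96.8 CPM. Icam1, an adhesion molecule for leukocytes, stood at 196, 228 and 52.4 CPM and Vcam1 at 284, 473 and 129 CPM. IDD was the lowest for these 4 genes. Of the leukocyte adhesion list, which holds Icam1 and Vcam1, 2 of 11 were higher and 1 lower in IDD+HID over IDD. In IDD+HTF over IDD 3 of 11 were higher and 3 lower. The medians of this list were -0.208 and -0.00689, against 0.183 and 0.107 over all genes. Among the NF-kB targets and chemokines Ccl2 was the one lower in both, at 39.0, 41.8 and 105 CPM, with 53.8% of its IDD UMIs in 1 cell. Interferon response genes were higher in 9 of 17 cases and lower in 1 in IDD+HID over IDD, and higher in 4 of 16 and lower in 1 in IDD+HTF over IDD. The count in IDD+HTF lies near the 19.6% over all genes, and the list median there was 0.187 against 0.107. Isg15 stood at 188, 184 and 36.3 CPM, while Mx1, an antiviral GTPase, was high in IDD+HID only, at 63.6, 10.4 and 12.1 CPM.

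Zonation genes outside the rule also differed between the mice. Lhx6 was 0.30-fold in IDD+HID over IDD (0.228 to 0.399) and 0.434-fold in IDD+HTF over IDD (0.316 to 0.599). Selp was 0.29-fold (0.204 to 0.417) and 0.441-fold (0.294 to 0.664). With the deepest cells left out the log2 ratio of Lhx6 in IDD+HID over IDD was -1.08, against -1.74 with them. Both genes are also large vessel markers, of which 3 of 4 measured (Edn1, Selp and Lhx6) were lower and 1 (Clu) higher than in IDD in each treated mouse, with medians of -1.76 and -1.19. The part of large vessel cells in these ratios was not tested. Lhx6 and Selp were the 2 of 8 measured pericentral genes past 1.5-fold in each comparison, and Fabp4, Thbd, Ptgs1 and Gja4 stayed within it in both. Over all genes 7.31% and 8.38% were lower. Periportal genes outside the rule were higher in 4 of 8 cases in IDD+HID over IDD, against 23.5% of all genes. In IDD+HTF over IDD 6 of 9 were higher, against 19.6% of all genes. Without the members with markers of other types 2 of 7 were higher in each, where 25.7% and 20% of all genes were. Lyve1 stood at 252, 391 and 109 CPM, 2.31-fold (1.57 to 3.55) and 3.59-fold (2.41 to 5.55) over IDD. Its periportal ratios were 2.53 (2.23 to 2.88) and 3.4 (3.0 to 3.88), close to the pericentral ones.

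Cyp26b1, which clears retinoic acid, set the treated mice apart from each other. It stood at 233 CPM in IDD+HID, 1248 in IDD+HTF and 730 in IDD, below IDD in the first and above it in the second. It was 0.319-fold in IDD+HID over IDD (0.268 to 0.381), 1.71-fold in IDD+HTF over IDD (1.45 to 2.02) and 0.187-fold in IDD+HID over IDD+HTF (0.166 to 0.209). Periportal cells had 122, 818 and 548 CPM, in the same order. Scd1, a fatty acid desaturase abundant in hepatocytes, was lowest in IDD+HID, at 32.8, 85.1 and 157 CPM, with 744, 1586 and 2245 CPM in near-empty droplets. Of the other genes lower in IDD+HID over IDD+HTF, Depp1 stood at 4.62, 64.2 and 4.03 CPM and Pola2 at 264, 773 and 427 CPM. Mup20 (69.2, 272 and 177 CPM), Lrp4 (86.7, 304 and 141 CPM) and Sass6 (78.5, 270 and 153 CPM) were more abundant in near-empty droplets than in the members. Ntrk3 had 83.9% of its IDD+HTF UMIs in 1 cell, and Wdr66 had 55.6%.

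Several of the largest ratios rested on a single member or on transcripts of free RNA. Igkc, an immunoglobulin chain of plasma cells, had 338, 58 and 0 UMIs, with 87.3% and 96.6% of them in 1 cell of each treated mouse. Lyz2, a macrophage lysozyme, stood at 319, 76.1 and 8.06 CPM with 90.5% and 92.2% of the treated mice's UMIs in 1 cell. The myeloid and lymphoid genes Spp1 (127 CPM in IDD+HID), Il12b (80.5), Ccr7 (77.4) and Rgs1 (81.5) had at most 1 UMI in each other library, and Spp1 had 98% of its UMIs in 1 cell. Ccl5, a chemokine of lymphocytes, had 289, 0 and 0 UMIs in 12, 0 and 0 cells. Epsti1 had 88.9% of its IDD+HID UMIs in 1 cell. In the other direction, Edn1, encoding endothelin, stood at 6.15, 17.9 and 335 CPM, from 3 cells in IDD. Plbd1 and Ccl4 had all their IDD UMIs in 1 cell.

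MHC class II genes gave the lowest ratios in IDD+HTF over IDD and the highest in IDD+HID over IDD+HTF. H2-Aa stood at 880 CPM in IDD+HID, 17.9 in IDD+HTF and 1028 in IDD, with 99.6% of the IDD UMIs in 1 cell, and at 12.7, 1.8 and 0 CPM without the members with markers of other types. Cd74 (1970, 67.2 and 1290 CPM), H2-Ab1 (714, 26.9 and 1157 CPM) and H2-Eb1 (827, 32.8 and 976 CPM) did the same, with 98.6% to 99.7% in 1 IDD cell. Cd52 stood at 301, 13.4 and 367 CPM, all of the IDD UMIs in 1 cell. The protease inhibitor Cst3 stood at 2149, 546 and 3149 CPM, with 77.2% of its IDD UMIs in 1 cell, and at 434, 533 and 785 CPM without the members with markers of other types. Of 11 antigen presentation genes 8 were lower in IDD+HTF over IDD, and 1 of 6 without those members. Repeat and ribosomal transcripts were highest in IDD, also in near-empty droplets. CT010467.1 stood at 25877, 37238 and 69811 CPM in members and at 45953, 62400 and 149730 CPM in the droplets. Mir6236 stood at 2731, 2822 and 17306 CPM and Lars2 at 1720, 2310 and 4584 CPM. AA474408 (52.8, 58.2 and 226 CPM) and Olfr157 (95.4, 194 and 359 CPM) followed the same order. Of the genes higher in IDD+HTF, the secretory channel gene Sec61g stood at 48.7, 112 and 12.1 CPM and the hepatocyte protease inhibitor Serpina1b at 39.5, 70.1 and 4.03 CPM.

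Several other lists stayed near the shares over all genes, of which 23.5% were higher and 7.31% lower in IDD+HID over IDD. In IDD+HTF over IDD these shares were 19.6% and 8.38%. Of 10 fenestra, caveola and junction genes 2 were higher in IDD+HID over IDD and 1 in IDD+HTF over IDD, Cldn5 in both. Of the sinusoidal transcription factors 3 of 16 and 3 of 17 were higher. Of 9 Wnt pathway genes outside the rule 1 was higher and 1 lower in IDD+HID over IDD, and 1 was higher in IDD+HTF over IDD. Of 15 scavenger and endocytic receptors 4 were higher in each, with 2 lower in IDD+HTF over IDD. Ddit4, a stress-induced inhibitor of mTORC1, was at 48.7, 121 and 40.3 CPM and was the hypoxia gene higher in IDD+HTF. Some lists lay further from the shares over all genes, though not in every comparison. Of 15 vascular growth factors 6 were higher and 2 lower in IDD+HTF over IDD. In IDD+HID over IDD 3 of 14 were higher and 1 lower, near the shares over all genes. Cell cycle genes were higher in 4 of 8 cases in IDD+HID over IDD and in 2 of 6 in IDD+HTF over IDD.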

How the data were processed

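Single-cell 3' RNA libraries of 3 mouse livers were analysed. The deposited values are whole-number counts of UMIs per barcode and gene, with no normalization by the authors and with all barcodes kept, per the file headers and values. The submitters' processing notes name GRCm38 and Seurat 4, while the sources used here do not name the aligner. Of 55421 identifiers 54673 matched GENCODE M21 (GRCm38) with their version, which gave positions.

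The members, gene lists and tests were chosen with earlier results of these data known. For each library and zone the UMIs of the cells were added up with Python 3.11.15 (numpy 2.4.6, scipy 1.17.1, pandas 2.3.3) and given as CPM with exact Poisson intervals. Ratios between libraries carry exact conditional binomial intervals. A gene was measured where the smaller library would expect at least 10 UMIs and called at 1.5-fold, with no test. Where a library held no UMI, a fold was computed against a floor of 3 UMIs per library and is a lower bound. Zones were tested with edgeR 4.0.16 (R 4.3.3, quasi-likelihood, TMM, filterByExpr, mouse as block, adjusted p threshold 0.05). The block is the mouse itself, since both zones come from the same animals, whose treatments differ. DESeq2 1.42.0, other scalings, filters, thinning and left-out mice were tried as alternatives. The procedures were tested on simulated data. Figures were drawn with matplotlib 3.10.9.

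Named genes were 17 genes taken whatever their values, the 10 higher and 10 lower measured genes per pair of libraries with the counting interval furthest from 1, and the 12 higher and 12 lower genes of largest change between zones. Symbols starting with Gm or ending with Rik, mitochondrial and ribosomal protein genes and genes of the rule were left out, and 2 to 4 called genes per list were added. Some genes that the rule or the lists named are not reported here. Mgp, Cpe, Edn1, Ecm1 and Steap4 in the checks for other cell types, and the genes shown in the Rspo3 split, were chosen after their values were seen.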

Additional observations from a re-analysis of the deposited data

Results flagged for a closer look

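Igkc was flagged because its pericentral and periportal differences from IDD ran in opposite directions, which does not make it the only such gene. In IDD+HID over IDD its log2 ratio in pericentral cells was at least 3.84 (at least 14.3-fold, against a floor of 3 UMIs in IDD), while periportal cells gave -0.85 (0.553-fold, 0.436 to 0.709). In IDD+HTF over IDD the pericentral log2 ratio was at least 2.84 (at least 7.16-fold), while periportal cells gave -2.08 (0.237-fold, 0.173 to 0.325). The difference between the zones was not tested. In the members 1 cell held 87.3% of the Igkc UMIs in IDD+HID and 96.6% in IDD+HTF, and without the members with markers of other types 3.34, 3.59 and 0 CPM remained in IDD+HID, IDD+HTF and IDD.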

How the results depend on the processing

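The zone counts of 298 higher and 239 lower genes became 54 and 33 with no replicate block, where the mouse was left out of the model, 136 and 102 with DESeq2, and 403 and 408 with no filter on low counts. With all other sinusoidal cells in place of periportal cells 186 rose, and with cells over 2 times the median UMIs left out 194 rose. Leaving out 1 mouse at a time gave 86 to 340 higher and 53 to 202 lower genes, the lowest without IDD+HID. Of the values for single named genes, counted per gene and setting, 296 kept their call and 16 lost it, and none changed sign. Over all genes, the rule applied after thinning to 3000 UMIs gave 326 higher and 264 lower genes. Of these 225 and 202 had the same call in the main result, and 1 had the opposite call. No paired analysis was possible because each treatment group holds 1 mouse, so the comparisons between treatments have no block. There, the lower genes of IDD+HID over IDD became 182 with TMM and 220 with median-of-ratios scaling. A minimum of 20 expected UMIs gave 558 higher and 127 lower, 413 and 139 (IDD+HTF over IDD), and 576 and 364 (IDD+HID over IDD+HTF). With no such minimum the counts were 9431 and 5975, 7070 and 5521, and 7046 and 5600. The share of pericentral cells moved to 9.905% in IDD+HID and 7.659% in IDD at 1000 UMIs per cell, and to 18.35% in IDD at 5000. The log2 ratio of Cd74 in IDD+HTF over IDD turned to 4.03 with the deepest cells left out and to 1.83 with the rule applied after thinning to 3000 UMIs. The ratios of Bmp6 between treatments kept their direction and their side of 1.5-fold under the 9 alternatives that recomputed them, but their size moved. At the minimum of 20 expected UMIs Bmp6 no longer counted as measured in either comparison with IDD, which held 4 Bmp6 UMIs. With at most 10% mitochondrial UMIs, which left 2 Bmp6 UMIs in IDD, Bmp6 was 8.05-fold in IDD+HID over IDD and 6.65-fold in IDD+HTF over IDD, and with the deepest cells left out it was 4.00-fold and 2.78-fold. Depth limits IDD most, where 3 UMIs are 12.1 CPM.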

Other observations

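Cell cycle genes were seen in few members. Top2a, which untangles DNA in dividing cells, had 129, 3 and 1 UMIs in IDD+HID, IDD+HTF and IDD, found in 15, 3 and 1 cells. Mki67, a marker of cycling cells, had 94, 2 and 0 UMIs, with 62.8% of the IDD+HID UMIs in 1 cell. Between zones 0 of 13 cell cycle genes passed the test, where 2.44% of all genes tested rose and 1.96% fell. Of the clock genes 0 of 10 passed between zones, and Bhlhe41, a clock repressor, stood at 66.2, 128 and 165 CPM in members against 56.7, 115 and 140 CPM in periportal cells.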
